A study of Mus musculus with 6 samples.

Results

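The genes described here handle calcium, phosphate and vitamin D in the small intestine. They are 3 phosphate transporters (Slc34a2, Slc20a1 and Slc20a2), 3 genes of calcium transport (Trpv6, S100g and Atp2b1), the vitamin D receptor Vdr, the vitamin D catabolising enzyme Cyp24a1 and 2 ectoenzymes (Enpp3 and Alpi). All 10 symbols were found among the 33017 genes of the count table, and 8 of them had enough counts to be tested. They were chosen by name for their function, with earlier results of these data known, including the read counts that set 1 control library apart. Their differences between libraries are therefore given as a description.

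The study sequenced poly-A RNA from small intestine of mice, and the labels divide its 6 libraries into 3 control and 3 model ones. The series concerns simulated microgravity and radiation, and its design text speaks of an effect induced by both factors. Strain, sex, age, doses, times and the stretch of intestine sampled are not given in the labels, and no library here is labelled as given the compound named in the title. Whether the libraries of a group come from different animals is not stated either, so p-values measure the spread between libraries, which may be technical. Levels are CPM, read counts scaled to the TMM-adjusted library total, and library totals lay between 35007515 and 45285564 counts.

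Absorbing enterocytes take up calcium through the apical channel TRPV6, ferry it through the cytoplasm bound to calbindin-D9k (S100g) and extrude it at the basolateral membrane with the pump PMCA1 (Atp2b1). Hormonally active vitamin D binds the receptor VDR, which pairs with RXR and induces genes of this route as well as its own catabolic enzyme CYP24A1. Phosphate enters with sodium through NaPi-IIb (Slc34a2) and through PiT-1 and PiT-2 (Slc20a1 and Slc20a2). These activities are unevenly spread along the gut: in mice NaPi-IIb is best known from the ileum and active calcium uptake from the duodenum.

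The libraries did not look alike in their position along the gut. In control 3 the ileal bile acid genes Fabp6 and Slc10a2 were at 1170 and 648 CPM, against at most 0.285 and 4.6 CPM in each other library. The proximal transcription factor genes Gata4 and Onecut2 were at 1.9 and 1.19 CPM there, against at least 214 and 203 CPM elsewhere. All 10 genes of a duodenum and jejunum list were at least 2-fold below the median of the other 5 libraries in control 3, and 4 of 5 tested ileum markers were at least 2-fold above it, the fifth, Nr0b2, being at 0 CPM. Fabp6 itself did not pass the filter on low counts, being near 0 in 5 libraries, and Fgf15 was at most 0.142 CPM in each library. The summed ileum markers measured 2640 CPM in control 3 and 124 to 269 CPM in the others, and the summed proximal markers 1100 CPM and 7230 to 12400 CPM. None of 8 epithelial markers, Epcam, Vil1 and Cdh17 among them, was 2-fold away in control 3, and each of the 8 was at 95.8 CPM or more in every library. The B cell marker sum reached 480 CPM in control 3 and 316 CPM in model 3, while the remaining 4 libraries held 48.0 to 83.1 CPM. Pancreatic enzyme genes summed to 5350 CPM in model 3 and to at most 40.4 CPM elsewhere. Smooth muscle markers summed to 1170 to 1990 CPM in the control libraries, against 877 to 1170 CPM in those of the model. Of the colon markers, Car1 and Hoxb13 were at most 0.19 and 0.271 CPM in each library. Control 3 is therefore given apart for the members, while some pathway genes are given only with all libraries fitted. Whether the ileal markers of control 3 come from the place of sampling was not tested.

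Slc34a2, the sodium-coupled phosphate carrier of the brush border, was abundant in 1 library and scarce in most. It measured 54.4, 1.04 and 589 CPM in control 1, 2 and 3, and 2.35, 1.95 and 0.826 CPM in model 1, 2 and 3. Control 3 stood far above each other library, control 1 came second, and control 2 lay among the model libraries, so that the groups overlapped. Control 3 was 302-fold above the median of the other 5 libraries. Control 1 held this Slc34a2 level without the ileal bile acid genes: its Fabp6 and Slc10a2 were at 0.125 and 1.13 CPM and its Gata4 at 214 CPM. Cubn, the ileal receptor for vitamin B12 bound to intrinsic factor, was likewise highest in control 3 (424 CPM) and second in control 1 (70.4 CPM), with 4.01 to 32.9 CPM in the other 4.

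The 2 housekeeping phosphate carriers showed no such spread. Slc20a1 measured 8.09, 7.54 and 9.1 CPM in the control libraries and 2.11, 7.94 and 15.7 CPM in the model libraries. The model libraries enclosed all 3 control values, with model 1 lowest and model 3 highest. Slc20a2 measured 41.9, 37.4 and 39.7 CPM in control and 20.6, 34.9 and 36.6 CPM in model libraries. Its groups did not overlap, but model 2 and model 3 lay within 3 CPM of control 2 and only model 1 stood clearly lower.

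Counted together, the reads of the 3 phosphate carriers were divided differently between libraries. Slc34a2 supplied 92.4% of them in control 3 (95% exact binomial interval 92.0 to 92.7%) and 52.1% in control 1 (50.7 to 53.5%). In the other 4 libraries it supplied between 1.55% (model 3, interval 1.04 to 2.23%) and 9.41% (model 1, 7.38 to 11.8%), and most reads were those of Slc20a2. These intervals cover counting error only.

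Trpv6, the apical calcium channel, ran the opposite way. It measured 3.13, 121 and 0.0475 CPM in control 1, 2 and 3 and 122, 18.7 and 16.4 CPM in model 1, 2 and 3. Control 2 and model 1 were nearly equal and highest, model 2 and model 3 formed a middle pair, and control 1 and control 3 were lowest, so the order ignored the group labels. Control 3 held 2 reads of Trpv6, which put it 393-fold below the median of the other libraries, with a 95% counting interval of 109 to 3245. Even among the 5 libraries without control 3 the highest value was 39.0 times the lowest.

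Atp2b1, the basolateral calcium pump, was far more even. It measured 276, 1160 and 426 CPM in control and 593, 549 and 406 CPM in model libraries. Control 2 was highest, as its Trpv6 level was near the top, and control 1 was lowest, while control 3 lay in the middle at 0.774 times the median of the other 5. Atp2b1 supplied 80.2% of all reads of the 4 plasma membrane calcium pump genes in both control 1 and control 3, and 88.6 to 95.8% in the other 4 libraries.

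S100g, the cytoplasmic calcium carrier, was listed at 0 counts in all 6 libraries. A count of 0 allows up to 3 counts, or 0.0626 to 0.104 CPM, for counting error alone. The value was not read as absence of the transcript, since another gene was at 0 in all 6 libraries although its partners were present. The pancreatic Cela2a was at 0 where Ctrb1, another pancreatic enzyme gene, reached 1890 CPM (model 3). No 50-base stretch of the annotated S100g transcript is shared with another gene's annotated transcript. Why it is at 0 was not tested.

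Vdr, the vitamin D receptor, was abundant in every library. It measured 732, 1070 and 356 CPM in control and 1400, 1000 and 1130 CPM in model libraries. Control 3 was lowest, at 3.02-fold below the median of the other 5, and model 1 was highest. Without control 3 the remaining values spanned 1.91-fold, with control 2 between model 2 and model 3. Cyp24a1, the 24-hydroxylase that inactivates vitamin D and is one of its classic target genes, was nearly absent from the counts. It had 2, 0 and 10 reads in control 1, 2 and 3 and 0, 4 and 0 reads in model 1, 2 and 3, too few to be tested, and no fold is given.

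Enpp3, an ectoenzyme that cleaves extracellular nucleotides, and Alpi, an intestinal alkaline phosphatase of the brush border, were both lowest in control 3. Enpp3 measured 764, 609 and 10 CPM in control and 1170, 842 and 952 CPM in model libraries. Control 3 was 84.2-fold below the median of the other 5 libraries. Each model library lay above each control library, also with control 3 set aside, although model 2 and control 1 were close. Alpi measured 2980, 5580 and 276 CPM in control and 7420, 3950 and 4090 CPM in model libraries. It was 14.8-fold below the others' median in control 3, and control 2 lay between model 1 and the other 2 model libraries.

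The closest relative of Alpi, the intestinal alkaline phosphatase gene Akp3, was set apart still further. Akp3 measured 3220, 10200 and 0.95 CPM in control 1, 2 and 3 and 14100, 6420 and 6930 CPM in model 1, 2 and 3. Its libraries came in the same order as those of Alpi, from model 1 through control 2, model 3, model 2 and control 1 to control 3. Alpi supplied 34.4 to 48.1% of the reads of both genes in 5 libraries and 99.7% in control 3 (exact binomial interval 99.5 to 99.8%). Reads shared by both genes could blur this split: 1.53% of the 50-base stretches of the Alpi transcript occur in Akp3 as well.

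**Figure D1:**
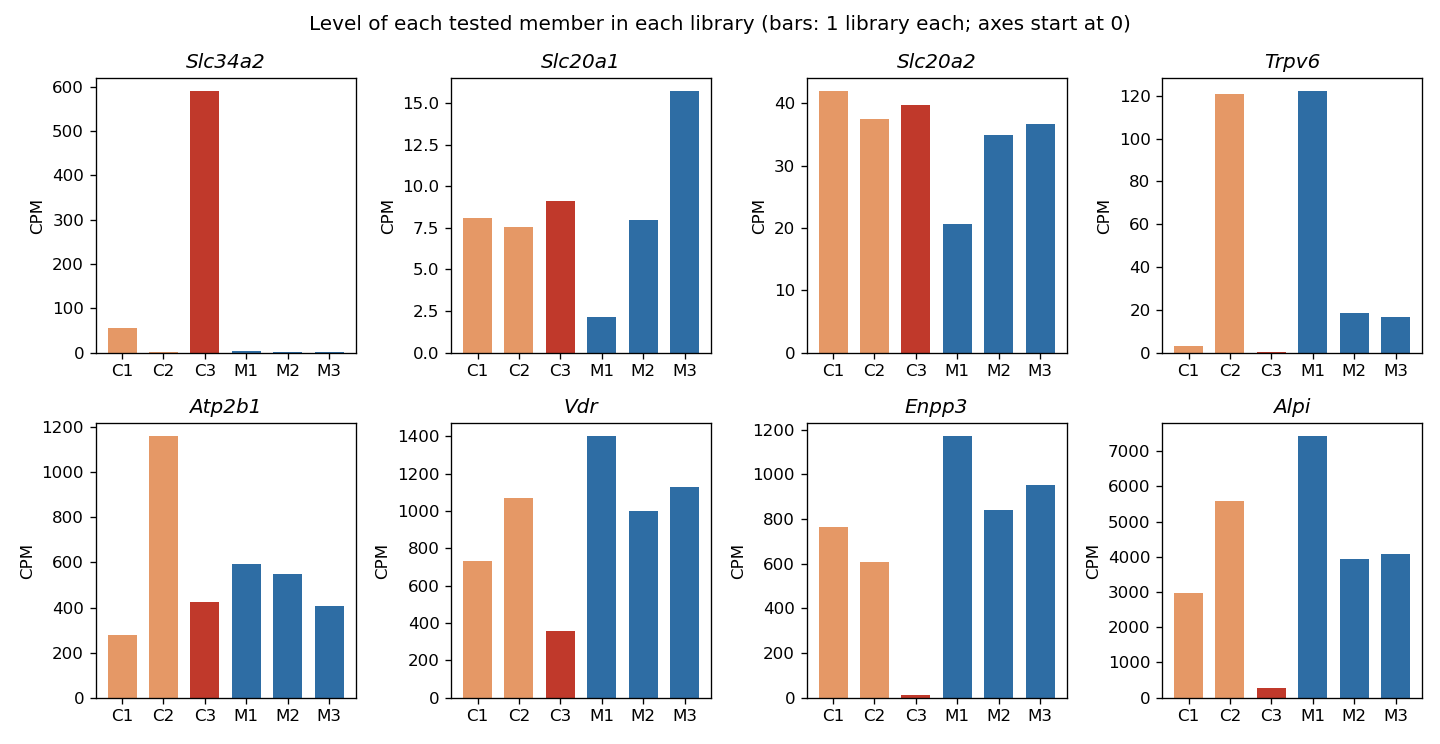
Level in CPM (y axis, linear and starting at 0, scaled for each gene) of the 8 tested genes in control 1 to 3 (C1 to C3, orange, with control 3 in red) and model 1 to 3 (M1 to M3, blue); each bar is 1 library and carries no error. Slc34a2 peaks in control 3 at 589 CPM, where Enpp3 (10 CPM) and Alpi (276 CPM) are lowest, and Trpv6 is highest in control 2 (121 CPM) and model 1 (122 CPM).

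**Figure D2:**
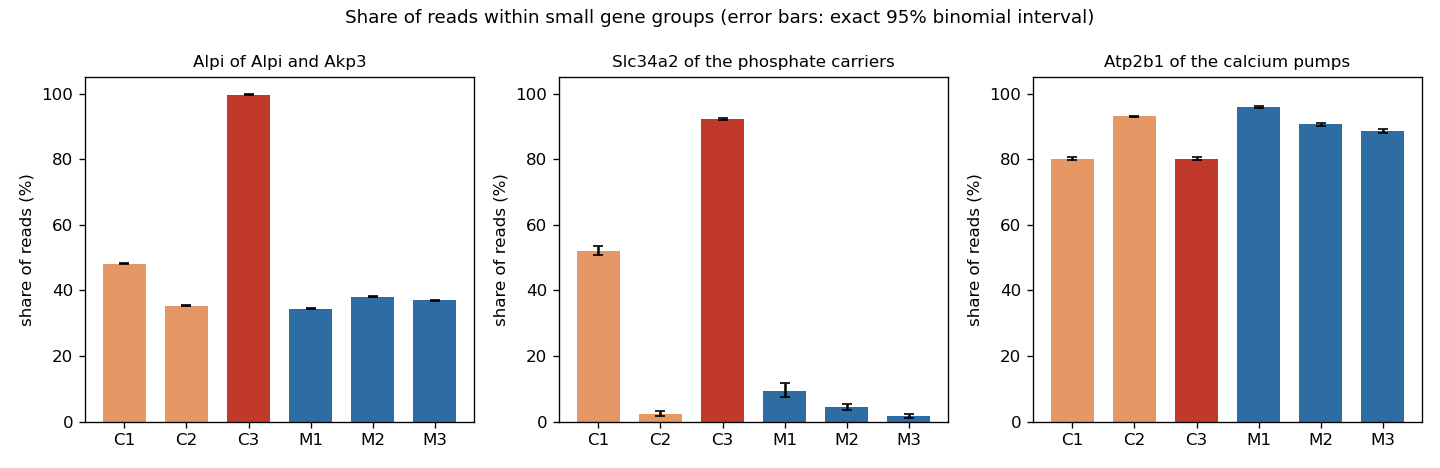
Share of reads in percent (y axis from 0) taken by Alpi among Alpi and Akp3, by Slc34a2 among the 3 phosphate carriers, and by Atp2b1 among the 4 plasma membrane calcium pumps, in each library (C control, with control 3 in red; M model). Error bars are exact 95% binomial intervals of 1 library; control 3 reaches 99.7% for Alpi and 92.4% for Slc34a2.

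Scaled by the merged length of all annotated exons of each gene, which can exceed that of a single transcript, the genes differed widely in level. As medians over the 5 libraries without control 3, Alpi was highest at 1750 CPM per kilobase of exon, followed by Vdr at 189, Enpp3 at 140 and Atp2b1 at 36.1 CPM per kilobase. Slc20a2 (5.89), Trpv6 (4.75), Slc20a1 (1.42) and Slc34a2 (0.389 CPM per kilobase) were low, but these 4 are not all set apart by their spread. The range of Trpv6 over the 5 libraries overlapped those of Atp2b1, Slc20a2, Slc20a1 and Slc34a2, and those of Vdr and Enpp3 overlapped each other. In control 3 Alpi and Slc34a2 stood level at 118 CPM per kilobase each, ahead of Vdr at 62.9 and Atp2b1 at 28.0 CPM per kilobase, while Enpp3 was at 1.66 and Trpv6 at 0.0121 CPM per kilobase.

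Against all tested genes, the deviation of control 3 can be counted. Of the 8 tested members, 1 (12.5%) was at least 2-fold above the median of the other 5 libraries in control 3, and 4 (50%) were at least 2-fold below it. Over all 15904 tested genes these shares were 7.98% and 6.09%. The genes were proposed with this library's deviation known, so nothing is read from the difference. Slc20a1, Slc20a2 and Atp2b1 stayed within 2-fold, with log2 ratios of 0.19, 0.12 and -0.37. In a bulk sample, fewer cells of a type and less RNA per cell cannot be told apart.

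**Figure D3:**
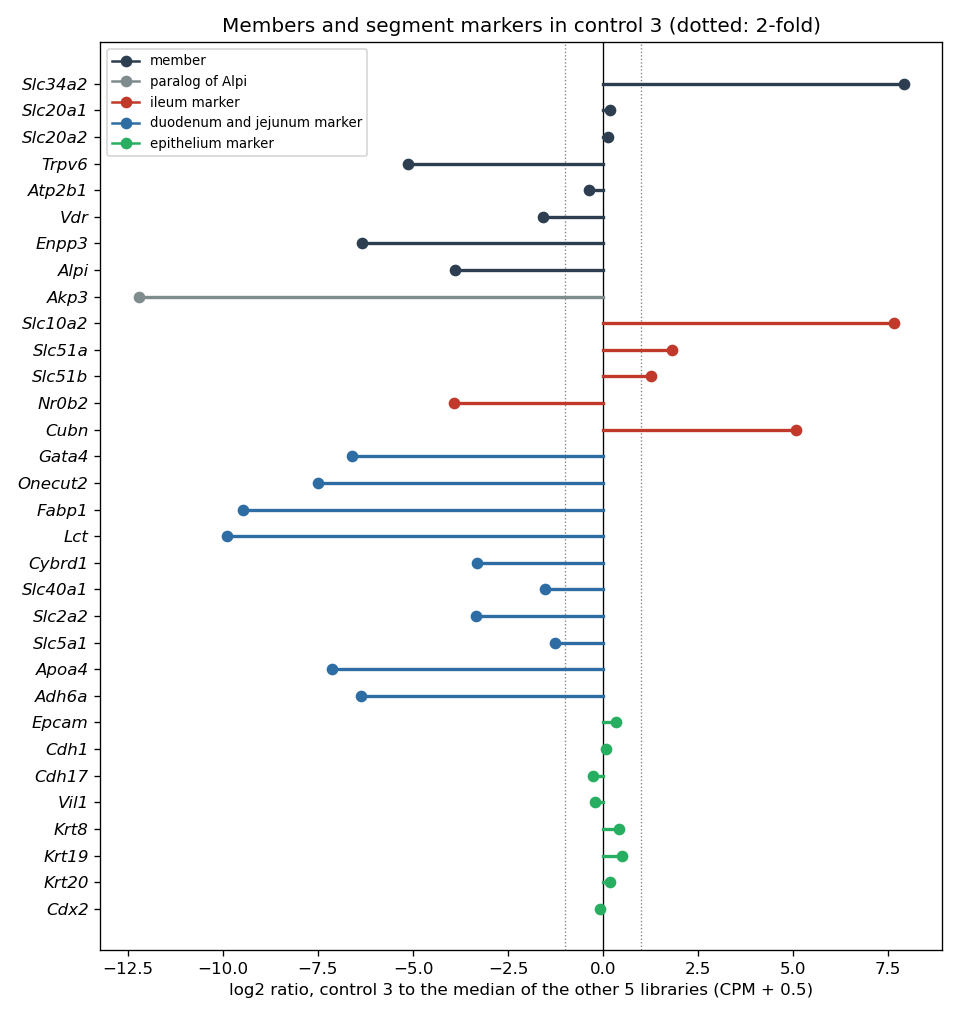
Log2 ratio of control 3 to the median of the other 5 libraries (x axis, computed on CPM + 0.5; dotted lines mark 2-fold) for the 8 tested members, Akp3, and every tested gene of the ileum, duodenum and jejunum, and epithelium marker lists; each point is 1 gene in 1 library and has no error. Slc34a2 (7.91) lies on the side of most ileum markers, Trpv6 (-5.13), Enpp3 (-6.33) and Alpi (-3.89) on the side of the proximal markers, and Slc20a1, Slc20a2 and Atp2b1 near 0 with the epithelial markers.

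The promoters of the 4 genes that lay farthest from the other libraries in control 3 are shown, so that the sequence before each start can be read beside its level. The windows are the 250 bases before the annotated start, from RefSeq on build GRCm38.p6, read 5′ to 3′ along the gene. They lie at chr5:53049103-53049352 on the plus strand for Slc34a2, and on the minus strand at chr6:41636406-41636655 for Trpv6, chr10:24836196-24836445 for Enpp3 and chr1:87101607-87101856 for Alpi. Capitals mark matches on either strand to 4 kinds of motif: GATA factor motifs (AGATAA, or else TGATAA), the CDX factor motif (TTTATNG), the TATA box (TATAAA) and half-sites of nuclear receptors such as VDR (AGGTCA, or else AGTTCA, or else GGGTCA, or else GGTTCA).
Slc34a2: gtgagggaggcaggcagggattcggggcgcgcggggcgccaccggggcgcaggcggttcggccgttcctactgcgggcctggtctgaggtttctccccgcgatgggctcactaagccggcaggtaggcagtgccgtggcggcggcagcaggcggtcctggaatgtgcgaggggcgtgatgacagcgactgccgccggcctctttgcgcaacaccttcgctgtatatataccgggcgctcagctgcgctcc
Trpv6: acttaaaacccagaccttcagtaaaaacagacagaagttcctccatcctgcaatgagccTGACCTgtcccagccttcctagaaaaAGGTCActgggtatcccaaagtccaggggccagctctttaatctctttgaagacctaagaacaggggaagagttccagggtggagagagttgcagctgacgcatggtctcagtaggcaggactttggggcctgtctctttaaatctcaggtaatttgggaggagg
Enpp3: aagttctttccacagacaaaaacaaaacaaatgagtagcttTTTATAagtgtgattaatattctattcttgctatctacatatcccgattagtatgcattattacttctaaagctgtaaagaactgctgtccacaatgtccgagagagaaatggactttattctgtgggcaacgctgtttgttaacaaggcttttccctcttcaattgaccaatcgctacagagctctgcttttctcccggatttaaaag
Alpi: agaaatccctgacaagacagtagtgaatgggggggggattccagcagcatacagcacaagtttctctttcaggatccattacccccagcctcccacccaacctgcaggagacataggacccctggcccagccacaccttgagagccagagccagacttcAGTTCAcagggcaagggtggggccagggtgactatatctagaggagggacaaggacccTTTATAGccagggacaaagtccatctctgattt

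The Slc34a2 window holds no exact match to any of these motifs. Its stretch tatatata near the start was not counted, since only the letters TATAAA were searched as a TATA box. Trpv6 holds 2 nuclear receptor half-sites, 191 and 165 bases before the start, where 38.6% of the 32841 promoter windows of the table hold at least 1. Alpi holds 1 half-site and, 33 bases before the start, a stretch that matches the TATA box and overlaps a CDX match. Enpp3 holds 1 TATA match, which lies farther off, 209 bases before the start. A TATA match occurs in 12.4% and a CDX match in 9.81% of all windows. GATA matches, present in 16.6% of all windows, were found in none of the 10 windows of the 8 members that the table holds, and neither was a pair of half-sites in direct repeat spaced by 3 bases, the classic vitamin D response element, which 0.0396% of windows hold. These are matches of letters within a short window and say nothing of binding.

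Between model and control, the fit across all genes gave no call for these genes. With edgeR's quasi-likelihood test 0 of the 8 tested members passed a Benjamini-Hochberg adjusted p of 0.05, as did 0 of all 15904 tested genes (0%). Limma-voom called 0 genes as well, and DESeq2's Wald test called 25. Adjusted p-values of the members lay between 0.851 and 0.985 in edgeR. Of the 8, 1 member (12.5%), Slc34a2, had an unadjusted edgeR p under 0.05, against 765 (4.81%) of all tested genes. By log2 fold change 5 members were on the higher and 3 on the lower side in model libraries, with a median of 0.20, against -0.02 over all tested genes. Groups did not overlap for 1 member on the higher side, Enpp3, and 1 on the lower, Slc20a2, or 12.5% each, where 4.73% and 6.33% of all tested genes did so.

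Among the members Slc34a2 had the largest fitted difference, a log2 fold change of -6.97 (SE 2.07), with control 3 and control 1 the high libraries. Without control 3 it was -4.00 (SE 1.35), and control 1 alone then stood above the model libraries. Its adjusted p was 0.851 in edgeR. DESeq2 called it, with an adjusted p of 0.0379, and called 0 members once control 3 was left out. Enpp3 had a log2 fold change of 1.10 (SE 1.11), which was 0.54 (SE 0.27) without control 3. Alpi had 0.81 (SE 0.88) and 0.29 (SE 0.44) without control 3, and Vdr 0.71 (SE 0.42) and 0.40 (SE 0.30). In these 3 genes the difference was thus smaller by over 1.5 times once control 3 was left out. The model mean still exceeded that of control 1 and 2, at 986 ± 165 CPM (SD, n = 3) against 687 CPM for Enpp3, 1180 ± 200 CPM against 902 CPM for Vdr and 5150 ± 1960 CPM against 4280 CPM for Alpi. Leaving out control 2 instead gave 1.68 for Alpi and 1.13 for Vdr.

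The other members had no stable direction or a small difference. Trpv6 had a log2 fold change of 0.34 (SE 1.91), which was -0.22 without control 3, -0.20 without control 1, -1.24 without model 1 and 5.06 without control 2. Atp2b1 had -0.27 (SE 0.52) and was at 0.58 without control 2. Slc20a1 was at 0.06 (SE 0.61), and at -0.70 without model 3. Slc20a2 was at -0.37 (SE 0.25), and at -0.15 without model 1. Model 1 also stood apart by exon length. Its genes with over 5 kb of exon had a median log2 deviation from the gene mean of -0.26, against -0.01 to 0.09 elsewhere. Genes under 2 kb had one of 0.57, against -0.36 to 0.09 in the other libraries. Slc20a2 and Slc20a1, both lowest in model 1, have 6.22 and 5.58 kb of exon. Alpi and Trpv6, with 2.34 and 3.94 kb, were highest in model 1. Vdr and Enpp3, with 5.65 and 6.02 kb, were highest there too. The part of length in these values was not tested.

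Without control 3 edgeR again called 0 of 16145 tested genes (0%) and 0 members. An unadjusted p under 0.05 was found for 377 of these genes, Slc34a2 among them (edgeR p 0.0238). Each adjusted p of a member was then 1. Enpp3 still lay above and Slc20a2 below both remaining control libraries in each model library, as 7.36% and 9.15% of all tested genes did.

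**Figure D4:**
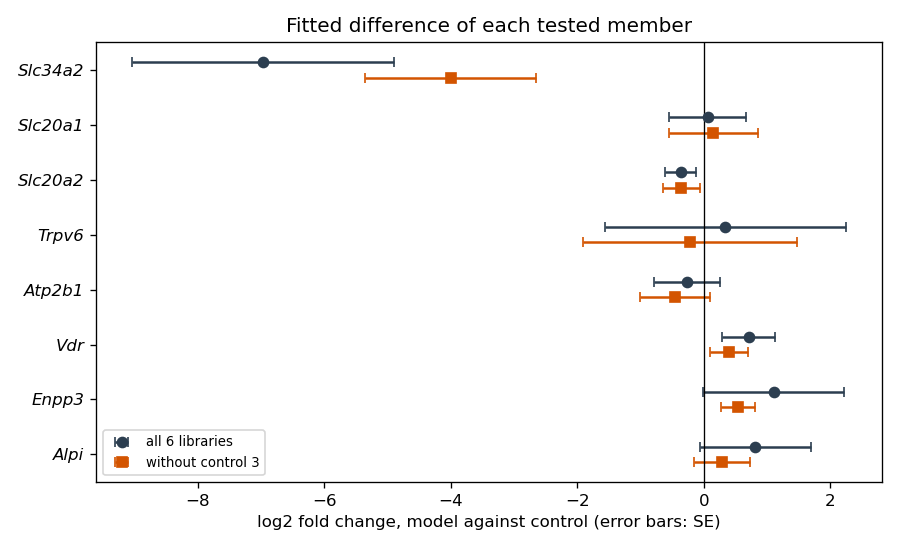
Fitted log2 fold change of model against control (x axis) for the 8 tested members with all 6 libraries (dark circles) and without control 3 (orange squares); error bars are SE. Slc34a2 moves from -6.97 to -4.00 and Enpp3 from 1.10 to 0.54 when control 3 is set aside. The SE spans 0 in both fits for Trpv6, Slc20a1, Atp2b1 and Alpi, and for Enpp3 with all 6 libraries only.

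The wider pathway was read from 4 lists of 66 other symbols, of which 64 are in the table and 57 were tested. Their median log2 fold change was 0.01, with 30 on the higher and 27 on the lower side. In either direction 0 passed edgeR's test, as with DESeq2 and limma-voom. In edgeR 7 (12.3%) had an unadjusted p under 0.05, against 4.81% of all tested genes. Trpm6, Cubn and Abcb1a, the last named after its values were seen, were among them and were each highest in control 3. Without control 3 their edgeR p was 0.308, 0.188 and 0.265. Atp2b4 and Cnnm4 were then at 0.0645 and 0.103, and Slc8a1 and Cyp27a1 at 0.0484 and 0.0203. In 3 of the 57 (5.26%) each model library lay above each control library and in 5 (8.77%) below it, close to the shares of 4.73% and 6.33% over all genes. In control 3, 10 (17.5%) were at least 2-fold above the other libraries' median and 9 (15.8%) at least 2-fold below, against 7.98% and 6.09% of all tested genes.

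Among 13 tested genes of vitamin D synthesis, reception and targets, 3 (23.1%) were without overlap, all higher in model libraries, where 4.73% of all tested genes lay on that side. Cyp27a1, a mitochondrial sterol hydroxylase that can also 25-hydroxylate vitamin D, measured 45.4, 48.1 and 27.8 CPM in control and 188, 52.8 and 165 CPM in model libraries. Its log2 fold change was 1.74 (SE 0.47) with all libraries and 1.55 without control 3, and model 2 lay only just above control 2. Cyp3a11, a drug-metabolising cytochrome P450 that also hydroxylates vitamin D, measured 1020, 1510 and 53.0 CPM in control and 6050, 1860 and 2360 CPM in model libraries (1.99, SE 1.03). Its log2 fold change without control 3 was 1.46 (SE 0.57). Slc30a10, a manganese exporter induced by vitamin D, was at 104, 470 and 37.0 CPM in control and 326, 259 and 248 CPM in model libraries, with control 2 highest as for Atp2b1. Rxrb, a retinoid X receptor gene named after its values were seen, was the third without overlap, at 40.5 to 55.6 CPM in control and 55.6 to 67.9 CPM in model libraries, so that the groups all but touched. Rxra, another partner of VDR, measured 231, 252 and 182 CPM in control and 304, 244 and 298 CPM in model libraries, and Pdia3, a disulfide isomerase, had a log2 fold change of -0.10 (SE 0.25).

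Of 20 tested genes of calcium and magnesium transport, 4 (20%) had each model library below each control library, against 6.33% of all tested genes, and 0 the reverse. Atp2b4, another plasma membrane calcium pump, measured 65.8, 82.6 and 100 CPM in control and 24.7, 55.1 and 49.9 CPM in model libraries (log2 fold change -0.94, SE 0.33). Slc8a1, a sodium and calcium exchanger, and Cnnm4, a magnesium transporter, were the others beside Atp2b2, both named after their values were seen, with log2 fold changes of -0.72 (SE 0.23) and -0.67 (SE 0.25). Fits without control 3 gave -0.76 for Atp2b4, -0.62 for Slc8a1 and -0.43 for Cnnm4. Atp2b2 lay on the same side at 1.07 to 1.63 CPM in model and 1.73 to 3.02 CPM in control libraries. All 4 were lowest in model 1, the library in which genes of over 5 kb of exon were low, and Atp2b2, Atp2b4 and Slc8a1 have 12.61, 12.25 and 18.81 kb of exon, while Cnnm4 has 4.83 kb. The smooth muscle markers also had 7 of 7 tested genes on the lower side, with a median of -0.72. Their sum was 1170 CPM in model 1 and 877 and 885 CPM in model 2 and 3. Myh11 among them was lowest in model 1, at 294 CPM. The part of length and of smooth muscle in these values was not tested. Trpm6, the magnesium channel, followed Slc34a2 in control 3, at 37.0 CPM against 0.104 to 2.16 CPM elsewhere. The abundant Anxa2, an annexin that binds calcium, lay at 0.14 (SE 0.30) in log2 fold change. Cldn15, a cation-selective tight junction claudin, was at 198 CPM in control 3 and 452 to 688 CPM elsewhere.

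Among 13 tested genes of phosphate transport and its regulation, 1 had no overlap. It was Slc34a1, the renal relative of Slc34a2, at 0.355, 0.374 and 1.88 CPM in control and 0.277, 0.0907 and 0.342 CPM in model libraries, levels close to the detection floor. Slc9a3, the sodium and proton exchanger of the brush border, was at 787, 797 and 95.9 CPM in control and 360, 1030 and 369 CPM in model libraries, with control 3 lowest and no order by group. The scaffold gene Nherf1, which anchors such transporters, was even in all 6 libraries, at 740 to 813 CPM in control and 781 to 1220 CPM in model libraries. Slc17a4, an organic anion and phosphate transporter, had a log2 fold change of 0.51 (SE 0.41). Of 11 tested phosphatases and nucleotide pyrophosphatases, 0 were without overlap. Besides Akp3, the abundant Entpd8 and Nt5e, which hydrolyse extracellular nucleotides, lay at 0.13 (SE 0.30) and 0.15 (SE 0.50) in log2 fold change.

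The genes most like each member were sought among the 10971 tested genes with a mean of at least 5 CPM. The measure was Pearson's r of log2 CPM over the 6 libraries, as a description. Control 3 and the scaling are shared by all points, and r has no test. For Slc34a2 they were Lgr5 (r = 0.994), Vsig10 and Palm, all highest in control 3 and second in control 1, though over a narrower range: Lgr5, a receptor of intestinal stem cells, was at 21.5 CPM in control 3, 14.7 CPM in control 1 and 5.45 to 6.67 CPM in the others. Of the other crypt markers, Olfm4 was lowest in control 3 at 468 CPM, while Axin2 was highest there at 96.2 CPM. For Trpv6 they were Pip4p2, Atp6v1c1 and Slc37a2, of which Slc37a2 came closest in range, from 6.08 CPM in control 3 up to 130 CPM in model 1 and 175 CPM in control 2. For Alpi they were Otop3 (r = 0.999), Reg1 and Dao, and Reg1, a secreted lectin, was at 7520 CPM in model 1 and 16.5 CPM in control 3. For Enpp3 they were Igsf23, Nudt5 and the fatty acid binding protein gene Fabp1, and for Vdr Slc19a1, Sumf1 and Nt5c2. For Slc20a1 (Rnf111, Ralgapb, Ddx6) and Slc20a2 (Adcy9, Tanc1, Zc3h7b) each of the 3 was lowest in model 1. Atp2b1 had its best match in Cdc5l at r = 0.972, followed by Zc3h8 and Bzw1. Among the members themselves, Vdr, Enpp3 and Alpi had r of 0.93 to 0.97 with each other, and Slc34a2 had -0.84 to -0.94 with Vdr, Enpp3, Alpi and Trpv6.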

How the data were processed

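RNA was poly-A selected from tissue frozen in liquid nitrogen, per the labels' protocols. The submitters' processing notes name FastQC, Trimmomatic, STAR and featureCounts and build GRCm39, while settings, versions, annotation and strand use are not stated there. The authors deposited raw read counts per gene symbol. All 6 columns were matched to samples by library name, and 0 were left unmatched.

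Genes were kept by filterByExpr (15904 of 33017, S100g and Cyp24a1 not among them), scaled by TMM and tested with edgeR 4.0.16 (R 4.3.3) by the robust quasi-likelihood F test, with group as the only term and Benjamini-Hochberg adjustment over all tested genes. SE was derived from F, as |log2 fold change| over its root. The script was tested on simulated data. The members and lists were chosen with earlier results of these data known. Pathway genes named are the 3 most abundant per list, up to 5 without overlap and up to 6 farthest from the others in control 3, of which 1 is not reported here. Ratios of control 3 add 0.5 CPM, while folds are plain CPM ratios. Exon lengths (GENCODE M21, GRCm38) matched 96.6% of tested genes, and RefSeq promoters (GRCm38.p6) 8 of 10 members, without Slc20a2 and Cyp24a1. Without a stated multi-mapping setting, reads shared with other genes are uncertain (12.3% of the 50-base stretches of Slc20a1, at most 2.4% for the other members). Alternatives were RLE, upper quartile and library size scaling, DESeq2 1.42.0, limma-voom 3.58.1, other filters, a non-robust dispersion, a replicate block and each library left out.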

Additional observations from a re-analysis of the deposited data

How the results depend on the processing

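Each alternative run with edgeR or limma-voom called 0 genes, leaving out any 1 library included, and DESeq2 called 25 with all 6 libraries. Without control 3 the count was again 0, and 21 with DESeq2. With the replicate block edgeR called 0 genes too. Whether replicate numbers pair the libraries cannot be told from these values. Deviations of same-numbered libraries from their group means correlated at -0.01, -0.34 and 0.34, and those of control 2 and model 1 at 0.58. These means rest on few libraries, control 3 among them, so the correlations cannot decide it. The number of members 2-fold away in control 3 was 5 in each alternative. For Slc34a2 the log2 ratio of control 3 was 4.38 against control 1 and 2 alone, in place of 7.91, and its log2 fold change was -4.41 with limma-voom and -4.48 with the replicate block, in place of -6.97. The sign of the log2 fold change of Slc20a1 turned with upper quartile scaling (-0.01), library size alone (-0.09), limma-voom (-0.29), the replicate block (-0.31) and without control 3 and model 3 together (-0.63), an alternative chosen after the data were seen. With single libraries left out it ranged from -0.70 to 0.52. Under the same omissions Trpv6 ranged from -1.24 to 5.06, and Atp2b1 from -0.62 to 0.58, while Enpp3 was at 1.68 without control 1. With limma-voom and with the replicate block, Trpv6 was at 3.63 and 4.21 in place of 0.34, Enpp3 at 2.56 and 1.97 in place of 1.10, Alpi at 1.57 and 1.52 in place of 0.81, and Atp2b1 at -0.03 and -0.02 in place of -0.27. With library size alone Trpv6 was at 0.13 and Atp2b1 at -0.44. The cause was not tested. Slc34a2 could not be tested with at least 5 CPM in at least 3 libraries. Depth limits Cyp24a1, which had at most 10 counts per library.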
